A study of Mus musculus with 12 samples.

Results

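The 10 genes described here mark the endothelium of the brain and its barrier, and they were taken by name from 27833 genes measured in the hippocampus of naturally aged mice. Their names are Slc2a1, Cldn5, Ly6c1, Slco1a4, Pecam1, Abcb1a, Mfsd2a, Flt1, Cdh5 and Tek, and all 10 were present in the table and passed the filter on low values. The 12 RNA-seq libraries came from the hippocampus of wild-type male C57BL/6J mice aged 20 months. CON mice received 0.2 mL normal saline (n = 3 libraries), PQQ-L mice received pyrroloquinoline quinone (PQQ) at 5 mg/kg/day (n = 5) and PQQ-H mice at 10 mg/kg/day (n = 4), each by oral gavage for 14 days. PQQ is a small redox-active quinone taken as a dietary supplement. The study assigned 6 mice to each group, all of them aged and none young, so the values compare PQQ with saline in aged mice and not age itself. The comparisons ask whether the transcripts of the brain vasculature differed between treated and control hippocampus and between the doses.

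Endothelial cells line the capillaries of the brain and are sealed to each other by tight junctions, so that most solutes cross only by way of transporters. Glucose, hormones and lipids enter through carriers of the solute carrier families, while efflux pumps return many drugs to the blood. Pericytes, a basement membrane and the endfeet of astrocytes surround this layer, and Wnt ligands from the neural tissue maintain its barrier state through beta-catenin. The choroid plexus differs, since its capillaries are fenestrated and its barrier is an epithelium with its own claudins and transporters.

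FPKM (fragments counted on a gene, divided by its length in kilobases and by the library total) were deposited, and 29654553 to 38179496 reads per library were recovered from them on genes. Markers of other tissues set some libraries apart, which bears on every comparison below. The summed FPKM of 18 choroid plexus genes was 4092, 1802 and 6000 in the CON libraries, 102 to 201 in PQQ-L and 78.5 to 95.8 in PQQ-H. The sum of 14 striatal neuron genes exceeded 1000 FPKM in CON 1, CON 3, PQQ-H 1 and PQQ-H 2 (1665 to 4010) and was 99.2 to 250.2 in the other 8 libraries, all of which carry the same tissue label. In those 4 libraries 14 hippocampal neuron genes summed to 81.5 to 163, against 217 to 513 in the other 8. None of these markers was at 0 in all libraries.

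**Figure D1:**
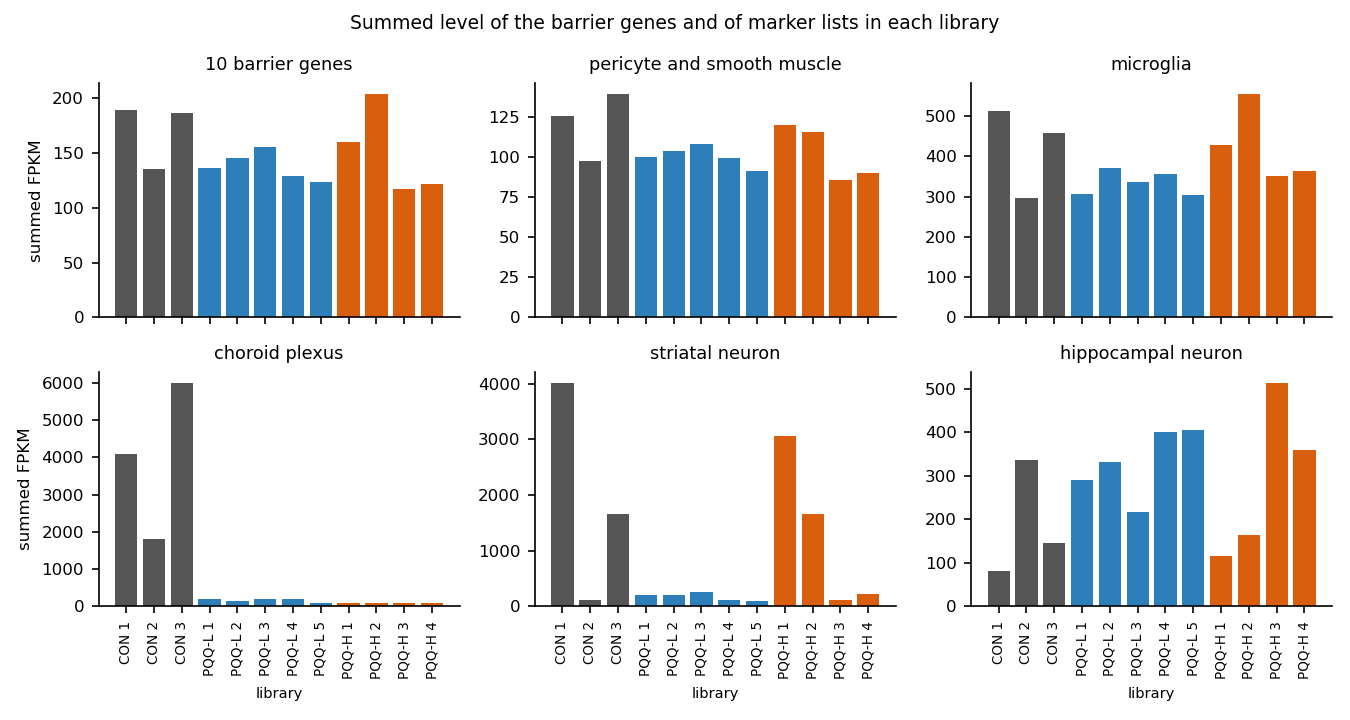
Summed FPKM (vertical axes, from 0) of the 10 barrier genes and of 5 marker lists in each of the 12 libraries (horizontal axes; grey CON, blue PQQ-L, orange PQQ-H). The barrier genes summed to between 117 FPKM in PQQ-H 3 and 204 FPKM in PQQ-H 2, the choroid plexus list was highest in the 3 CON libraries, and the striatal list was high in CON 1, CON 3, PQQ-H 1 and PQQ-H 2.

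The sequence before the start of a gene is where transcription factors of the endothelium can act, and it is shown for 2 pairs of genes. Flt1 and Abcb1a varied together over all 12 libraries and, by Pearson's r, within the 8 with a low striatal sum. Cldn5 and Ly6c1 did so over the 12, while their correlation within the 8 was lower and did not reach an adjusted p below 0.05 (values below). RefSeq windows of GRCm38.p6, from 250 bases before to 50 after a start, were found for 8 of the 10 genes, with 2 for Ly6c1 and none used for Pecam1 and Cdh5. Capitals mark GGAAG or its reverse complement CTTCC, the core letters bound by ETS factors, a family that includes regulators of endothelial genes. The windows are chr5:147725962-147726261 on the minus strand for Flt1, chr5:8566841-8567140 on the plus strand for Abcb1a, chr16:18776597-18776896 on the plus strand for Cldn5 and chr15:75048614-75048913 on the minus strand for Ly6c1, each written 5′ to 3′ along its gene.
Flt1: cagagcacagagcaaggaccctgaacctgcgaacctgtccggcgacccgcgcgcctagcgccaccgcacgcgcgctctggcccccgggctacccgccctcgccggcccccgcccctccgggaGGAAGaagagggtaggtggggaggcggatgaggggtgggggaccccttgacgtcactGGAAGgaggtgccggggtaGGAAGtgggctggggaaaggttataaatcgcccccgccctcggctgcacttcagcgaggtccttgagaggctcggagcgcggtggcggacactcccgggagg
Abcb1a: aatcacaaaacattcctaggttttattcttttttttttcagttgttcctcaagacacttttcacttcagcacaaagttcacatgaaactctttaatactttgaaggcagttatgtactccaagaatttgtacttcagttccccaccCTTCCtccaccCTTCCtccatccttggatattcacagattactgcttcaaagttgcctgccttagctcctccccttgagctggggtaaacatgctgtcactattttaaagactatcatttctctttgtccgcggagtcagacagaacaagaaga
Cldn5: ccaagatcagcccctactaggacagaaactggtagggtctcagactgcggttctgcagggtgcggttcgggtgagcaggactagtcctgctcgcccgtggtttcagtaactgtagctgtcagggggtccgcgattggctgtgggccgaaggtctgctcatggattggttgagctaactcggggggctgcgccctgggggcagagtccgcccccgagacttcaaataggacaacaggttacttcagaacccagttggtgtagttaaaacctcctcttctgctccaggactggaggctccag
Ly6c1: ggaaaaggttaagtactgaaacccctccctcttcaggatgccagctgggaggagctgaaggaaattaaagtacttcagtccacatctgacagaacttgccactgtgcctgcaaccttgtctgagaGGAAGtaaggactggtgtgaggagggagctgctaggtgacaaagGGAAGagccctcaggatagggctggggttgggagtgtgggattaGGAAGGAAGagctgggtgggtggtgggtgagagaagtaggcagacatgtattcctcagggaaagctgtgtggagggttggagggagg
GGAAG on either strand was present 3 times in the window of Flt1, 2 times in that of Abcb1a and 4 times in the one shown for Ly6c1, and it was not in that of Cldn5. It occurred in 5 of the 9 windows of these genes and in 71.4% of all 32851 windows of the same length. The SOX letters ACAAT were in 2 of the 9 windows (31.0% of all), the TCF/LEF letters CTTTGA in 2 (16.0% of all), the TATA box letters TATAAA in 3 (13.6% of all) and the GC box letters GGGCGG in 3 (35.7% of all). The windows differed widely in CpG, from 29 in Flt1, 22 in Mfsd2a and 18 in Slc2a1 to 2 in Abcb1a, 1 in Slco1a4 and 0 in the one shown for Ly6c1, against a median of 7 over all windows. Letters in a window are a description, and the files hold no measurement of factor binding.

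Over all 12 libraries, Slc2a1 had the highest level at 50.1 ± 10.7 FPKM (SD, n = 12), above 95.4% of the genes in the table. Cldn5 followed at 29.0 ± 6.60 FPKM, Ly6c1 at 25.6 ± 7.07 and Slco1a4 at 14.0 ± 1.60. Pecam1 (7.19 ± 1.65) and Abcb1a (7.09 ± 1.37) could not be ordered, since Pecam1 was above Abcb1a in only 7 of 12 libraries. Mfsd2a (6.07 ± 0.891) and Flt1 (5.75 ± 0.943) could not be ordered either, with Mfsd2a higher in 6 of 12. Cdh5 at 3.09 ± 0.550 FPKM and Tek at 2.56 ± 0.385 FPKM were the lowest of the 10, and each was still covered by at least 315 reads in every library. Every other neighbour in this order kept its place in 11 or 12 of the 12 libraries. Within a gene, the highest library was between 1.47 times (Slco1a4) and 2.10 times (Ly6c1) the lowest.

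Of the 10 genes, 0 were called in PQQ-L or in PQQ-H against CON, and 0 between the doses, at an adjusted p below 0.05 (limma on log2(FPKM + 0.1), Benjamini-Hochberg adjustment over 13796 genes). Among all genes tested, 0.587% were called in PQQ-L, 1.09% in PQQ-H and 0% between the doses. At an unadjusted p below 0.05 the count was also 0 of 10 in each comparison, against 20.5%, 9.73% and 8.15% of all genes. The groups overlapped for 10 of 10 genes in each comparison, while 10.6%, 7.08% and 4.76% of all genes did not overlap. The fitted log2FC was below 0 for 9 of the 10 genes in PQQ-L vs CON with a median of -0.21 (8 of 10 and -0.10 with TPM), and for 10 of 10 in PQQ-H vs CON with a median of -0.16 (8 of 10 and -0.098 with median-of-ratios scaling). The medians over all genes tested were -0.030 and -0.027, and both comparisons use the same 3 CON libraries. Of all genes tested, 53.9% in PQQ-L, 55.6% in PQQ-H and 54.3% between the doses had a log2FC below 0. The 10 genes vary together, so their counts are not counts of separate observations. Between the doses the median of the 10 genes was 0.028 and 4 of 10 were below 0 (-0.059 and 7 of 10 with TPM). The 95% interval of the log2FC lay within -1 and 1 for all 10 genes in each comparison, with outer bounds of -0.88 and 0.44 for PQQ-L, -0.78 and 0.46 for PQQ-H, and -0.46 and 0.73 between the doses. A log2FC on this scale slightly understates the difference of genes with a low FPKM. In whole tissue, fewer endothelial cells and less RNA per cell cannot be told apart. The libraries are taken to be separate mice, which the labels do not state, so the p-values measure the spread between these libraries.

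**Figure D2:**
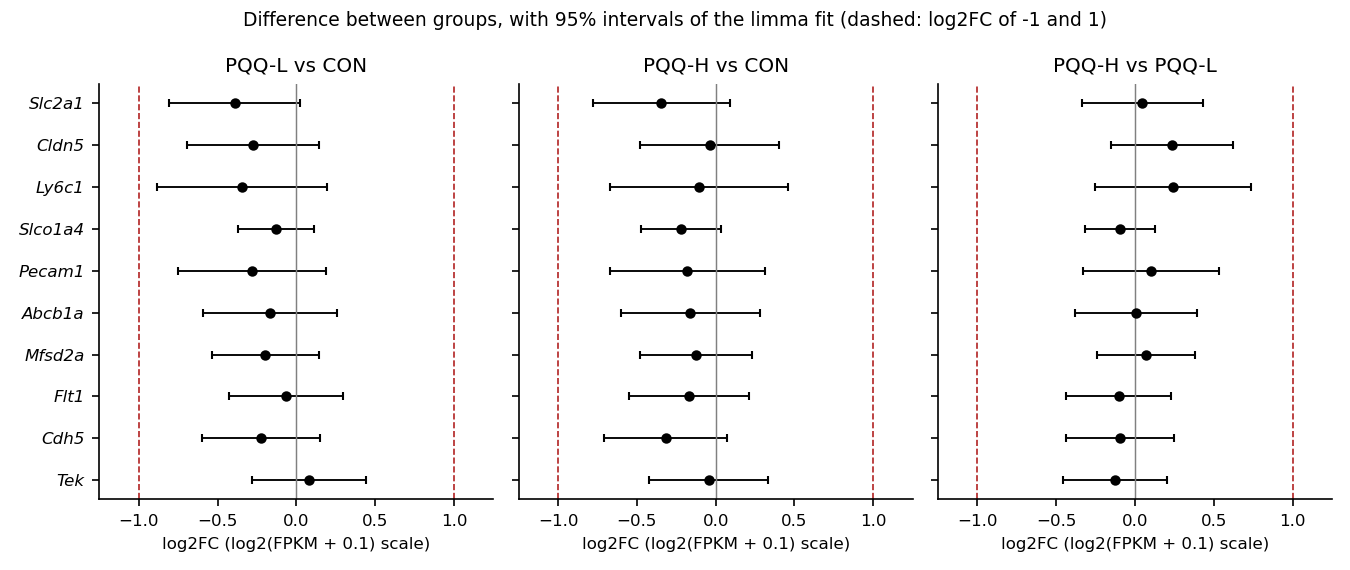
Fitted log2FC of the 10 barrier genes (points) with 95% intervals (bars) for each PQQ dose against CON and for PQQ-H against PQQ-L, on the log2(FPKM + 0.1) scale. All 30 intervals include 0 and all lie between the dashed lines at -1 and 1, and the point farthest below 0 is Slc2a1 in PQQ-L vs CON at -0.39.

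Of the 10 genes, 3 hold the endothelial layer together. Cldn5 encodes claudin-5, the main claudin of the tight junctions of brain capillaries. Its level was 38.7, 23.1 and 33.3 FPKM in the CON libraries, 24.6, 27.4, 25.0, 26.2 and 24.8 FPKM in PQQ-L and 28.2, 44.7, 25.4 and 26.0 FPKM in PQQ-H. The 5 PQQ-L libraries lay close together between CON 2 and the other 2 CON libraries, and PQQ-H 2 was the highest of all 12. The means were 31.7 ± 7.93 FPKM in CON (SD, n = 3), 25.6 ± 1.18 in PQQ-L (SD, n = 5) and 31.1 ± 9.17 in PQQ-H (SD, n = 4). The log2FC was -0.27 ± 0.19 (SE, limma adjusted p = 0.355) in PQQ-L and -0.037 ± 0.20 (SE, limma adjusted p = 0.959) in PQQ-H, within the spread of the CON libraries.

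Cdh5 encodes VE-cadherin, the cadherin of endothelial adherens junctions. Its level was 3.51, 3.09 and 3.99 FPKM in the CON libraries, 3.38, 2.77, 3.33, 2.84 and 2.72 FPKM in PQQ-L and 3.04, 3.86, 2.21 and 2.36 FPKM in PQQ-H. PQQ-H 2 lay within the range of CON, while the other 3 PQQ-H libraries were below the lowest CON library. The log2FC was -0.22 ± 0.17 (SE, limma adjusted p = 0.394) in PQQ-L and -0.32 ± 0.18 (SE, limma adjusted p = 0.626) in PQQ-H, and the interval in PQQ-H ran from -0.71 to 0.074. Pecam1 encodes the adhesion molecule CD31, found along all endothelial contacts and also on platelets and some leukocytes. Its level was 9.48, 5.80 and 9.20 FPKM in the CON libraries, 6.40, 6.95, 7.51, 6.03 and 5.91 FPKM in PQQ-L and 7.65, 10.3, 5.61 and 5.50 FPKM in PQQ-H. CON 2 was 1 of the 3 lowest libraries and CON 1 and CON 3 were among the 3 highest, so the CON group spanned most of the range. The log2FC was -0.28 ± 0.21 (SE, limma adjusted p = 0.389) in PQQ-L and -0.18 ± 0.22 (SE, limma adjusted p = 0.841) in PQQ-H. In the 12 libraries 13 leukocyte genes summed to 5.59 to 11.4 FPKM, highest in PQQ-H 2, which also had the highest Pecam1. The part of blood cells in the level of Pecam1 was not tested.

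A further 4 encode transporters of the barrier. Slc2a1 encodes GLUT1, which carries glucose into the brain and is also present in astrocytes and choroid plexus. Its level was 62.8, 49.6 and 67.6 FPKM in the CON libraries, 46.6, 46.5, 56.3, 41.3 and 37.9 FPKM in PQQ-L and 55.7, 61.9, 36.4 and 38.4 FPKM in PQQ-H. The means were 60.0 ± 9.36 FPKM in CON (SD, n = 3), 45.7 ± 6.99 in PQQ-L (SD, n = 5) and 48.1 ± 12.7 in PQQ-H (SD, n = 4). A single PQQ-L library, PQQ-L 3, was above the lowest CON library, and the other 4 were below all 3. With a log2FC of -0.39 ± 0.19 (SE, limma adjusted p = 0.252), or -23.8%, Slc2a1 had the largest difference of the 10 genes in PQQ-L vs CON, and its two-sided exact permutation p was 0.0714, where 0.0357 is the smallest that 5 against 3 libraries allow. In PQQ-H the log2FC was -0.34 ± 0.20 (SE, limma adjusted p = 0.638), with PQQ-H 3 and PQQ-H 4 below and PQQ-H 1 and PQQ-H 2 within the CON range.

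Slco1a4 encodes OATP1A4, a carrier of organic anions and conjugated steroids. Its level was 15.5, 13.5 and 16.9 FPKM in the CON libraries, 13.4, 14.3, 15.1, 13.4 and 13.5 FPKM in PQQ-L and 13.0, 16.0, 11.5 and 12.2 FPKM in PQQ-H. PQQ-H 2 was within the CON range, and the other 3 PQQ-H libraries were below it. This gene had the smallest unadjusted p of the 10 in PQQ-H vs CON, where its log2FC was -0.22 ± 0.12 (SE, limma adjusted p = 0.588) with an interval from -0.47 to 0.031, and its two-sided exact permutation p was 0.171, with 0.0571 the smallest that 4 against 3 libraries can give, so this design cannot reach 0.05. In PQQ-L its log2FC was -0.13 ± 0.11 (SE, limma adjusted p = 0.444).

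Abcb1a encodes P-glycoprotein, the efflux pump that keeps many drugs out of the brain. Its level was 7.61, 7.09 and 8.15 FPKM in the CON libraries, 6.31, 7.14, 8.94, 5.83 and 5.99 FPKM in PQQ-L and 7.21, 9.80, 5.33 and 5.65 FPKM in PQQ-H. The CON libraries were close together, and both PQQ groups reached above and below them. The log2FC was -0.17 ± 0.19 (SE, limma adjusted p = 0.565) in PQQ-L, -0.16 ± 0.20 (SE, limma adjusted p = 0.842) in PQQ-H and 0.0078 ± 0.18 (SE, limma adjusted p = 0.988) between the doses. Mfsd2a encodes the carrier of lysophosphatidylcholine with docosahexaenoic acid, which also limits vesicle transport across the endothelium. Its level was 6.76, 6.39 and 6.53 FPKM in the CON libraries, 5.56, 6.86, 6.57, 5.03 and 4.77 FPKM in PQQ-L and 7.02, 7.06, 5.56 and 4.69 FPKM in PQQ-H. The CON libraries had the smallest coefficient of variation of any gene and group here (2.87%), and 3 of 5 PQQ-L and 2 of 4 PQQ-H libraries were below them. The log2FC was -0.20 ± 0.15 (SE, limma adjusted p = 0.403) in PQQ-L and -0.13 ± 0.16 (SE, limma adjusted p = 0.842) in PQQ-H.

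Flt1 and Tek encode receptor tyrosine kinases of the endothelium. Flt1 is VEGF receptor 1, which binds VEGF-A tightly and signals little, so that it limits the ligand left for VEGF receptor 2. Its level was 5.83, 5.66 and 6.66 FPKM in the CON libraries, 5.91, 5.70, 6.71, 5.53 and 5.07 FPKM in PQQ-L and 5.28, 7.75, 4.57 and 4.39 FPKM in PQQ-H. The PQQ-L libraries reached from below the lowest to just above the highest CON library, and PQQ-H held both the highest and the 2 lowest libraries. The log2FC was -0.067 ± 0.17 (SE, limma adjusted p = 0.802) in PQQ-L and -0.17 ± 0.17 (SE, limma adjusted p = 0.805) in PQQ-H. Tek encodes TIE2, the receptor for the angiopoietins that keeps vessels quiescent. Its level was 2.41, 2.24 and 2.89 FPKM in the CON libraries, 2.49, 2.49, 3.16, 2.61 and 2.54 FPKM in PQQ-L and 2.81, 3.10, 1.87 and 2.11 FPKM in PQQ-H. It was the only one of the 10 genes with a mean above CON in PQQ-L, at a log2FC of 0.080 ± 0.16 (SE, limma adjusted p = 0.757), and the 4 PQQ-L libraries other than PQQ-L 3 differed little among themselves. In PQQ-H the log2FC was -0.045 ± 0.17 (SE, limma adjusted p = 0.947).

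Ly6c1 encodes a GPI-anchored surface protein that is abundant on the capillary endothelium of the mouse brain and also on some monocytes. Its level was 36.6, 19.4 and 31.1 FPKM in the CON libraries, 21.5, 25.2, 23.1, 20.7 and 20.5 FPKM in PQQ-L and 30.5, 39.4, 18.7 and 20.7 FPKM in PQQ-H. As for Cldn5 and Pecam1, CON 1, CON 3 and PQQ-H 2 were the 3 highest libraries and CON 2 was near the lowest. The log2FC was -0.34 ± 0.25 (SE, limma adjusted p = 0.366) in PQQ-L, -0.10 ± 0.26 (SE, limma adjusted p = 0.917) in PQQ-H and 0.24 ± 0.23 (SE, limma adjusted p = 0.677) between the doses, with the largest SE of the 10 genes.

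**Figure D3:**
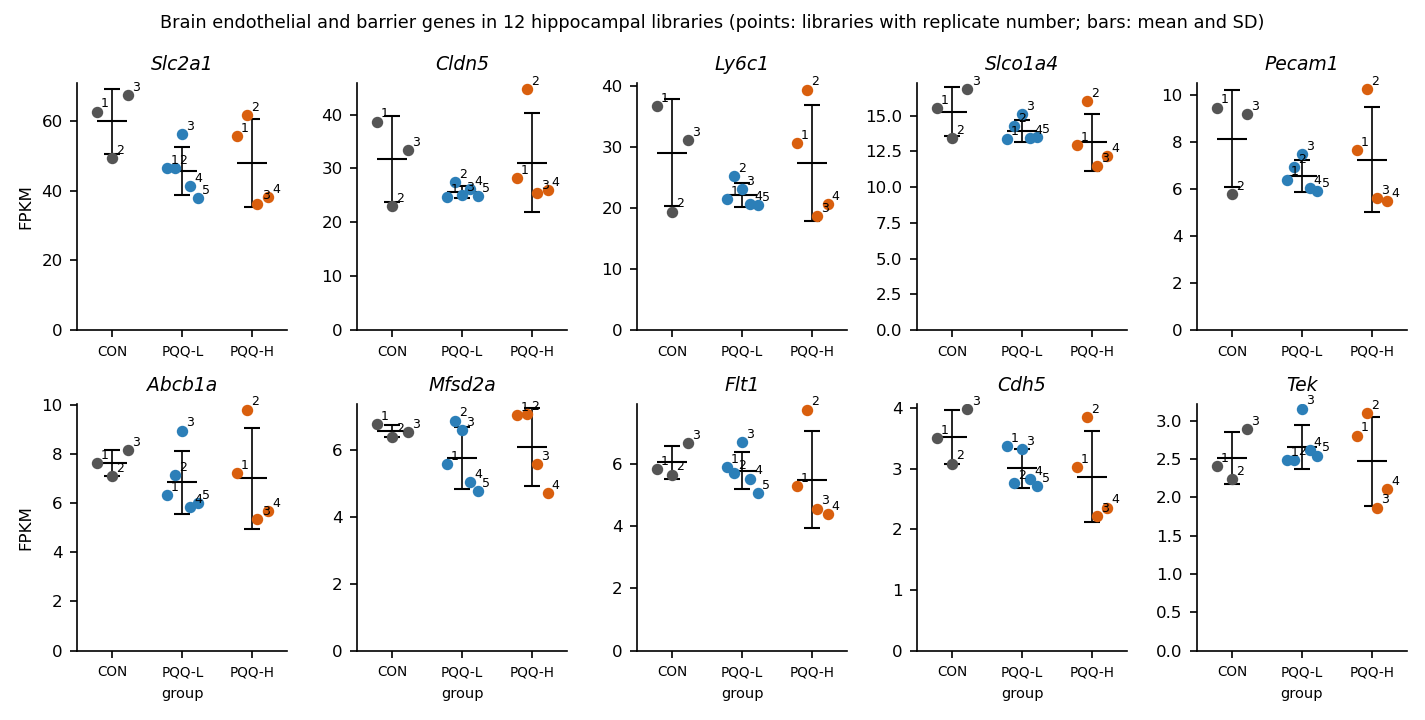
FPKM (vertical axes, from 0) of the 10 barrier genes in each library (points with replicate numbers) of CON, PQQ-L and PQQ-H, with the mean (long bar) and SD (short bars). The groups overlap in all 10 panels, and the 4 PQQ-H libraries are spread most widely.

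The 10 genes tended to be high or low in the same libraries. PQQ-H 2 was the highest library for 6 genes and among the 3 highest for 10 of 10. CON 3 was the highest for 3 genes and among the 3 highest for 9. PQQ-H 3 was the lowest library for 6 genes and PQQ-H 4 for 3, and each was among the 3 lowest for 8. The mean z-score over the 10 genes ran from -1.28 in PQQ-H 3 and -1.15 in PQQ-H 4 to 1.55 in PQQ-H 2. The PQQ-H group therefore held both ends of the range. The median coefficient of variation of the 10 genes was 13.0% in CON, 10.6% in PQQ-L and 27.3% in PQQ-H. It was larger in PQQ-H than in PQQ-L for 10 of 10 genes, which vary together and are not 10 separate observations. The share of all genes tested with this difference was not computed. PQQ-H 1 and PQQ-H 2 had a striatal sum above 1000 FPKM, and no PQQ-L library did. Some other lists also differed between the PQQ-H libraries. Pericyte and smooth muscle genes summed to 116 FPKM in PQQ-H 2 and 120 in PQQ-H 1 against 86.0 in PQQ-H 3 and 90.1 in PQQ-H 4. Microglial genes summed to 554 FPKM in PQQ-H 2 and 352 in PQQ-H 3, and red cell genes to 600.1 FPKM in PQQ-H 2 against 122 to 151 in the other PQQ-H libraries. The lists did not all follow the 10 genes. Astrocyte endfeet genes summed to 565 FPKM in PQQ-H 1 and 608 in PQQ-H 3. In PQQ-L 3, which had the highest mean z-score of PQQ-L, red cell genes summed to 55.1 FPKM, the lowest of the 12 libraries. The libraries with a striatal sum above 1000 FPKM had mean z-scores of 1.55 (PQQ-H 2), 1.08 (CON 3), 0.84 (CON 1) and 0.25 (PQQ-H 1). In the other libraries it ran from -1.28 in PQQ-H 3 (striatal sum 112 FPKM) to 0.56 in PQQ-L 3. Among those with a high sum the order was not kept, since the sum was 3061 FPKM in PQQ-H 1 and 1667 in PQQ-H 2. The part of these lists in the spread was not tested.

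**Figure D4:**
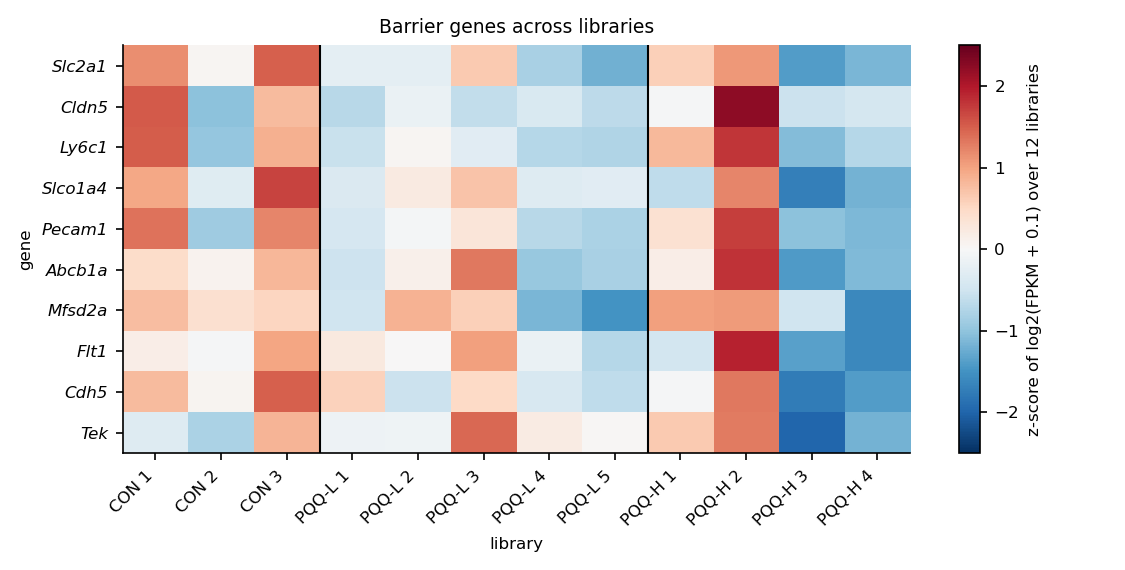
Z-scores of log2(FPKM + 0.1) of the 10 barrier genes (rows) over the 12 libraries (columns, in groups CON, PQQ-L and PQQ-H separated by black lines). PQQ-H 2 is above the mean for every gene, and PQQ-H 3 and PQQ-H 4 are below it for every gene.

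When the 4 libraries with a high striatal sum (CON 1, CON 3, PQQ-H 1 and PQQ-H 2) were left out, the medians of the 10 genes moved. CON 2 alone was then left for the control group, so its spread was assumed to be that of the other groups. The median log2FC was 0.037 in PQQ-L vs CON (4 of 10 below 0), -0.25 in PQQ-H vs CON (8 of 10) and -0.26 between the doses, with 0 genes called. With a striatal score as a covariate, the median was 0.060 in PQQ-L (2 of 10 below 0), -0.071 in PQQ-H (7 of 10) and -0.18 between the doses (9 of 10), again with 0 called. The PQQ-L median without the 4 libraries thus compares 5 libraries with 1. Without CON 2, in contrast, Cldn5, Ly6c1, Pecam1 and Slc2a1 were lower in PQQ-L at an unadjusted p below 0.05. In this fit 43.1% of all genes also were below it in either direction, and the smallest adjusted p of the 10 genes was 0.0733. The controls then left, CON 1 and CON 3, both had a striatal sum above 1000 FPKM, and no PQQ-L library was above 250.2 FPKM. PQQ-L and striatal content therefore cannot be told apart in PQQ-L vs CON without CON 2, here and below. Without PQQ-H 2, Cdh5, Flt1, Slc2a1 and Slco1a4 were lower in PQQ-H at an unadjusted p below 0.05 (13.0% of all genes were in either direction), the median log2FC was -0.33 and the smallest adjusted p was 0.182.

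All 45 pairs of the 10 genes correlated positively over the 12 libraries, with a median Pearson r of 0.79. For Pecam1 and Ly6c1, r was 0.961 and Spearman's rho 0.923 (permutation p = 1e-05, the smallest that 100000 permutations give, and 9e-05), with adjusted p of 0.000225 and 0.00247 over the 45 pairs. Without the 2 libraries farthest from the median, PQQ-H 2 and CON 1, r was 0.916. Since the 12 libraries fall into 2 sets by striatal content, the pairs were also compared within the 8 libraries with a low sum. There, 40 of 45 pairs were positive, the median r was 0.73, and 17 pairs had an adjusted p below 0.05 by exact permutation of Pearson's r and 0 by that of rho, against 41 and 32 over all 12 libraries. Flt1 and Abcb1a had r = 0.905 over 12 libraries and 0.861 over 8 (exact adjusted p = 0.0311), with rho of 0.860 and 0.881. Flt1 and Cdh5 had r = 0.901 and 0.918 (exact adjusted p = 0.0253), with rho of 0.881 in both. Cldn5 and Ly6c1 had r = 0.928 over 12 libraries but 0.570 over 8 (exact adjusted p = 0.204), with rho of 0.818 and 0.381. The values over 8 were lower, but so few libraries cannot show that the relation is absent there. Cldn5 and Tek had the lowest r of all pairs at 0.417 over 12 libraries and 0.049 over 8. The 4 libraries with a high sum are too few for a value of their own.

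Across the 13796 genes tested, the pattern most like the mean z-score of the 10 genes over 12 libraries was that of Icam2 (r = 0.972, rho = 0.951), which encodes an adhesion molecule of endothelial cells and ranged from 0.735 to 2.11 FPKM. It was followed by Gnai2 (r = 0.969), which encodes an inhibitory G protein subunit, and Tgfb1 (r = 0.963), a growth factor. Nherf1 (0.954), Lima1 (0.949), Slc25a37 (0.945), Epb41l2 (0.944), Cspg5 (0.937) and Tbc1d9b (0.937) were also among the 10 most alike, and of the genes named Icam2 alone belonged to a vascular list used here. The libraries share the differences in tissue markers given above. Among the 10 genes themselves, r with the mean of the other 9 ran from 0.737 for Cldn5 to 0.955 for Pecam1.

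Close relatives could share reads with some of the genes. Abcb1b, the second mouse gene for P-glycoprotein, was at 0.665 to 0.975 FPKM and thus far below Abcb1a. Ly6c2, nearly identical to Ly6c1, was at 0 to 0.549 FPKM, and how the counting treated reads that match both is not given in the sources used here, so both levels are uncertain. Ly6a, another member of the family and a marker of vessels, was at 20.5 to 66.6 FPKM, highest in PQQ-H 2 and CON 1. Of the relatives of Slco1a4, Slco1a1 was covered by 0 to 2 reads. Slco1a5, a carrier of the choroid plexus, was covered by 32 to 58 reads in each CON library, 0 to 8 in PQQ-L and 0 to 2 in PQQ-H, below the filter for testing. Slco1c1, the thyroxine carrier of barrier endothelium and choroid plexus, had means of 27.5 ± 6.67 FPKM in CON, 18.9 ± 2.49 in PQQ-L and 18.1 ± 1.59 in PQQ-H. Kdr, VEGF receptor 2, had means of 2.28 ± 0.319 FPKM in CON, 1.89 ± 0.393 in PQQ-L and 1.52 ± 0.116 in PQQ-H, and Tie1, the partner of Tek, 2.71 ± 0.262 FPKM in CON, 2.10 ± 0.250 in PQQ-L and 1.96 ± 0.320 in PQQ-H. In PQQ-L and PQQ-H, the log2FC of Slco1c1 was -0.52 and -0.58 (limma adjusted p = 0.182 and 0.169). That of Tie1 was -0.36 and -0.45 (limma adjusted p = 0.233 and 0.270), and that of Ly6a -0.58 and -0.14 (limma adjusted p = 0.314 and 0.922). Abcb1b went the other way, at 0.21 and 0.15 (limma adjusted p = 0.380 and 0.816), and Kdr is given below. None of the relatives that could be tested was called.

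Other genes of the vessel wall were compared by lists written from general knowledge, with results of these data already known. None of the lists holds any of the 10 genes, and a few genes stand in more than 1 list. In the junction list, 2 of 19 genes tested were called lower for each PQQ group and 0 were called higher. Over all genes tested, 0.587% were called for PQQ-L and 1.09% for PQQ-H. The log2FC was below 0 for 14 of the 19 genes at the low dose and 17 at the high dose, with medians of -0.33 and -0.33. Cldn3 encodes a claudin that is abundant in the choroid plexus epithelium. It was covered by 49 to 175 reads in the CON libraries (2.60 ± 1.43 FPKM), 0 to 9 in PQQ-L and 0 to 1 in PQQ-H, with limma adjusted p of 0.00117 and 0.000598, and no fold is given against so few reads. F11r encodes the junctional adhesion molecule A, found in endothelium and epithelium. Its means were 7.39 ± 1.59 FPKM in CON, 3.68 ± 0.494 in PQQ-L and 4.27 ± 0.797 in PQQ-H, and it fell in PQQ-L with a log2FC of -0.98 ± 0.17 (SE, limma adjusted p = 0.0275), while the value in PQQ-H was -0.77 ± 0.18 (SE, limma adjusted p = 0.0808). Cgnl1 encodes paracingulin, a protein of the inner face of junctions. Its means were 4.77 ± 1.14 FPKM in CON, 1.98 ± 0.483 in PQQ-L and 1.81 ± 0.515 in PQQ-H, and it fell in PQQ-H with a log2FC of -1.36 ± 0.25 (SE, limma adjusted p = 0.0268), while the value in PQQ-L was -1.22 ± 0.24 (SE, limma adjusted p = 0.0511). For F11r and Cgnl1 the differences between the doses were not called (adjusted p = 0.627 and 0.803).

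The choroid plexus list was also lower in the PQQ groups. Of its 17 genes tested, 14 were called lower in PQQ-L and 15 in PQQ-H, and 0 were called higher. F11r was 7.61, 5.71 and 8.87 FPKM and Cgnl1 4.83, 3.59 and 5.88 FPKM in CON 1, CON 2 and CON 3, the same order as the choroid plexus sums of 4092, 1802 and 6000 FPKM. This order was not particular to F11r and Cgnl1, since Slc2a1, Slco1a4, Flt1, Abcb1a, Cdh5 and Tek also had it in the CON libraries. Within PQQ-L the choroid plexus sums were only 102 to 201 FPKM, so the order of these libraries cannot show a part of this tissue either way. There PQQ-L 4 had the highest sum and Cgnl1 at 1.64 FPKM, the second lowest. PQQ-L 2 had a sum of 137 FPKM and the highest F11r (4.29 FPKM). Every CON library and no PQQ library had a high choroid plexus sum, so this tissue and PQQ cannot be told apart. The part of this tissue in the differences of F11r and Cgnl1 was not tested. Leaving out single libraries ended some calls while the log2FC stayed of similar size. Without CON 1 it was -0.94 for F11r in PQQ-L (adjusted p = 0.173) and -1.34 for Cgnl1 in PQQ-H (adjusted p = 0.101), and without CON 3 it was -0.84 (adjusted p = 0.143) and -1.20 (adjusted p = 0.147). The call of F11r was lost in 6 of the 12 fits that left out 1 library (also without PQQ-L 1, PQQ-L 3, PQQ-L 4 or PQQ-L 5, adjusted p = 0.0506 to 0.0765) and that of Cgnl1 in 4 (also without PQQ-H 3 or PQQ-H 4, adjusted p = 0.0725 and 0.0958). That of Cldn3 was kept in all 12. Without the 4 libraries with a high striatal sum, which leaves 1 CON library, none of the 3 was called, with a log2FC of -0.63 for F11r in PQQ-L and -1.33 for Cgnl1 in PQQ-H. Other settings added a call. Cgnl1 in PQQ-L was called with voom (adjusted p = 0.0240) and a pseudocount of 1 (adjusted p = 0.0277), and F11r in PQQ-H with TPM (adjusted p = 0.0394) and the striatal covariate (adjusted p = 0.0208). Without CON 2 the adjusted p was 0.0198 for Cgnl1 in PQQ-L and 0.0278 for F11r in PQQ-H, without PQQ-H 2 it was 0.0473 and 0.0341, and for Cgnl1 in PQQ-L it was 0.0300 without PQQ-L 3 and 0.0331 without PQQ-H 3.

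In the transport list, 0 of 20 genes tested were called in PQQ-L and 1 was called lower in PQQ-H, with medians of 0.00016 and -0.13. The gene was Slc22a8, the organic anion transporter OAT3 of barrier endothelium and choroid plexus. Its level was 3.74, 4.23 and 4.67 FPKM in the CON libraries, 3.68, 2.66, 3.07, 3.10 and 2.84 FPKM in PQQ-L and 2.64, 2.33, 2.27 and 2.04 FPKM in PQQ-H. All 4 PQQ-H libraries were below all 3 CON libraries, and it fell in PQQ-H with a log2FC of -0.83 ± 0.13 (SE, limma adjusted p = 0.00902), against -0.45 ± 0.12 (SE, limma adjusted p = 0.165) in PQQ-L. Without CON 3 the adjusted p in PQQ-H was 0.0647. The identity list had 0 of 26 called in PQQ-L and 1 in PQQ-H, with medians of -0.19 and -0.19. This was Pltp, the phospholipid transfer protein, with means of 61.2 ± 13.9 FPKM in CON, 36.0 ± 4.97 in PQQ-L and 31.2 ± 6.37 in PQQ-H and a log2FC of -0.97 ± 0.19 (SE, limma adjusted p = 0.0347) in PQQ-H. Its call was lost with median-of-ratios scaling (log2FC -0.90, adjusted p = 0.0546) and in 7 of the 12 fits that left out 1 library, without CON 1, CON 3, PQQ-L 1, PQQ-L 2, PQQ-L 4, PQQ-H 3 or PQQ-H 4 (log2FC -0.97 to -0.80, adjusted p = 0.0589 to 0.164), and without CON 2 it was also called in PQQ-L (adjusted p = 0.0243).

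The basement membrane list had 0 of 11 called in PQQ-L and 1 in PQQ-H, with medians of -0.35 and -0.48. Lama5, the alpha-5 chain of the laminins of endothelial and epithelial basement membranes, was 1.10, 1.08 and 1.20 FPKM in the CON libraries, 0.661, 0.621, 0.804, 0.736 and 0.617 FPKM in PQQ-L and 0.569, 0.664, 0.524 and 0.521 FPKM in PQQ-H. All 9 treated libraries were below the CON libraries, with a log2FC of -0.88 ± 0.15 (SE, limma adjusted p = 0.0192) in PQQ-H and -0.64 ± 0.15 (SE, limma adjusted p = 0.0872) in PQQ-L. The call in PQQ-H was lost without CON 1, CON 3, PQQ-H 3 or PQQ-H 4 (log2FC -0.90 to -0.83, adjusted p = 0.0678 to 0.107). In PQQ-L the gene was called without CON 2 (adjusted p = 0.0319), with voom (adjusted p = 0.0131) and with a pseudocount of 1 (adjusted p = 0.0447). Of 11 meningeal genes tested, 2 were called lower in PQQ-L and 4 in PQQ-H, while the log2FC was below 0 for 10 and 11 of them. The sums of the 16 genes listed were 638 to 896 FPKM in CON, 354 to 682 in PQQ-L and 256 to 447 in PQQ-H. The part of meninges and choroid plexus in Slc22a8, Pltp and Lama5 was not tested, and without the 4 libraries with a high striatal sum, which leaves 1 CON library, none of the 3 was called in PQQ-H, while the log2FC was -0.94, -0.90 and -0.93. In a fit of only the 2 groups compared, the adjusted p in PQQ-H was 0.155 for Cgnl1, 0.0832 for Slc22a8, 0.205 for Pltp and 0.170 for Lama5, with the same log2FC as in the fit of all 12 libraries.

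No gene was called in the remaining lists of the vessel wall. Of 19 genes of VEGF, angiopoietin and TGF-beta receptor signalling, 2 were lower at an unadjusted p below 0.05 in PQQ-L and 3 in PQQ-H, where 11.6% and 7.88% of all genes tested were, and the medians were -0.16 and -0.20. Tgfbr2, the type II TGF-beta receptor, had a log2FC of -0.48 ± 0.15 (SE, limma adjusted p = 0.190) in PQQ-L and -0.47 ± 0.15 (SE, limma adjusted p = 0.291) in PQQ-H. Kdr had a log2FC of -0.27 ± 0.17 (SE, limma adjusted p = 0.305) and -0.55 ± 0.17 (SE, limma adjusted p = 0.258). Of 22 genes of the Wnt/beta-catenin barrier programme, 6 in each PQQ group were lower at that level (medians -0.16 and -0.17), among them Axin2, a direct target of beta-catenin, at -0.33 ± 0.10 (SE, limma adjusted p = 0.188) in PQQ-L and -0.40 ± 0.10 (SE, limma adjusted p = 0.131) in PQQ-H, and the receptor Fzd6 at -0.44 ± 0.13 (SE, limma adjusted p = 0.189) and -0.58 ± 0.14 (SE, limma adjusted p = 0.0976). None of these passed the adjustment, although Fzd6 did in PQQ-H without PQQ-H 2 (adjusted p = 0.0332) and with the striatal covariate (adjusted p = 0.0446).

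Among 17 pericyte and smooth muscle genes, 3 were lower at an unadjusted p below 0.05 in PQQ-L and 2 in PQQ-H, with medians of -0.30 and -0.22, where 11.6% and 7.88% of all genes tested were lower at that level. Acta2, the smooth muscle actin of arterioles, had a log2FC of -0.43 ± 0.12 (SE, limma adjusted p = 0.157) in PQQ-L and -0.41 ± 0.12 (SE, limma adjusted p = 0.195) in PQQ-H, and Ifitm1 -0.96 ± 0.29 (SE, limma adjusted p = 0.189) and -0.66 ± 0.31 (SE, limma adjusted p = 0.520). Among 17 arterial and venous genes the count was 3 and 1, with medians of -0.12 and -0.18. Vcam1, an adhesion molecule for leukocytes that is also made in the choroid plexus, had a log2FC of -0.63 ± 0.20 (SE, limma adjusted p = 0.203) in PQQ-L and -0.73 ± 0.21 (SE, limma adjusted p = 0.196) in PQQ-H. Slc38a5, a glutamine transporter of venous endothelium, had a mean above CON in PQQ-H, with a log2FC of 0.78 ± 0.28 (SE, limma adjusted p = 0.349), with 0.660 ± 0.138 FPKM in CON and 1.24 ± 0.433 in PQQ-H. Among 8 genes of fenestrated endothelium, 3 were lower at that level in each PQQ group, with medians of -0.19 and -0.38. For the pericyte and arterial lists, these counts are near the shares over all genes. Plvap, the diaphragm protein of fenestrated capillaries such as those of the choroid plexus, had a log2FC of -0.58 ± 0.19 (SE, limma adjusted p = 0.210) and -0.46 ± 0.20 (SE, limma adjusted p = 0.478), and Cd24a -0.92 ± 0.42 (SE, limma adjusted p = 0.240) and -1.54 ± 0.43 (SE, limma adjusted p = 0.176). Some of these values changed when 1 library was left out. Without CON 2, 3224 genes in place of 81 were called in PQQ-L, and the controls left were CON 1 and CON 3, both with a high striatal sum. In that fit the adjusted p in PQQ-L was 0.0432 for Vcam1, 0.0280 for Plvap, 0.0267 for Acta2 and 0.0365 for Ifitm1. Without PQQ-H 2 the adjusted p was 0.0144 for Cd24a in PQQ-H.

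The 12 genes of astrocyte endfeet had a median log2FC of -0.045 in PQQ-H, and it was 0.10 in PQQ-L. Slc1a2, the main glutamate transporter of astrocytes, had a log2FC of 0.30 ± 0.12 (SE, limma adjusted p = 0.234) in PQQ-L and 0.17 ± 0.12 (SE, limma adjusted p = 0.726) in PQQ-H. Kcnj10, their inward rectifier potassium channel, had -0.21 ± 0.15 (SE, limma adjusted p = 0.351) and -0.37 ± 0.15 (SE, limma adjusted p = 0.442). Neither was called, and whether the endfeet list differs from the endothelial lists was not tested.

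**Figure D5:**
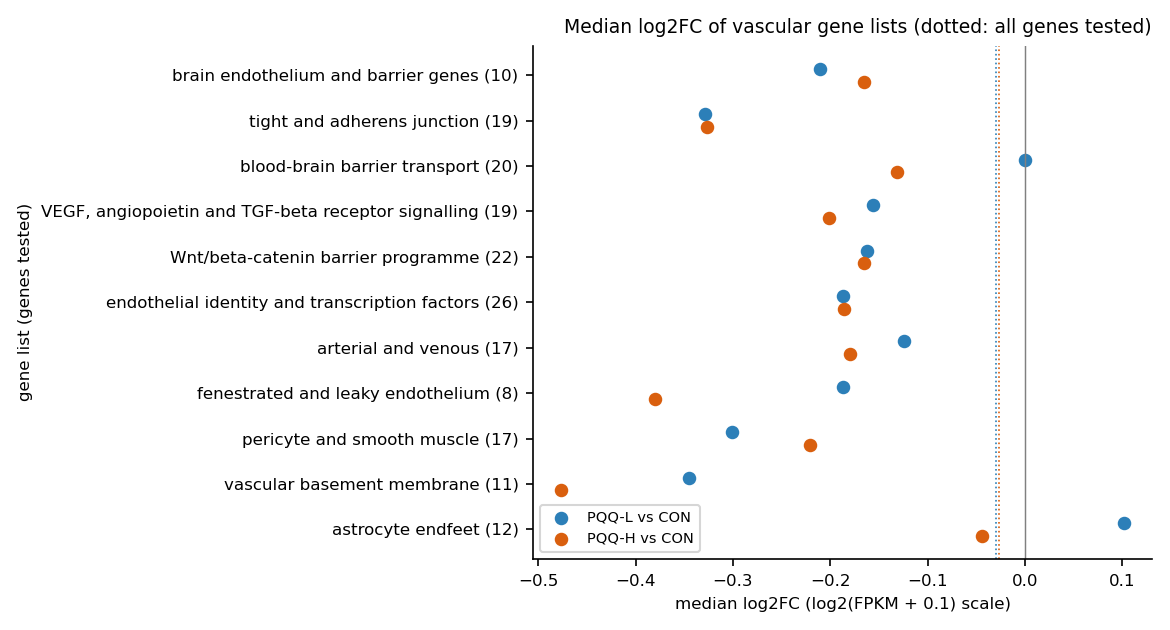
Median log2FC (horizontal axis, log2(FPKM + 0.1) scale) of the 10 barrier genes and of 10 lists of vascular genes in PQQ-L vs CON (blue) and PQQ-H vs CON (orange), with the number of genes tested in parentheses and the median of all genes tested as dotted lines. Medians of the lists run from -0.48 for the basement membrane in PQQ-H to 0.10 for astrocyte endfeet in PQQ-L, and both comparisons share the CON libraries.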

How the data were processed

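The authors extracted hippocampal RNA with TRIzol, prepared libraries with a VAHTS kit and sequenced them on a NovaSeq 6000 instrument. Reads were cleaned with fastp, aligned by HISAT2 and assigned to genes by HTSeq-count. FPKM were computed and deposited by the authors as 1 table of 27833 genes. The submitters' processing notes name the build mm39, and the annotation, strandedness and program versions are not given in the sources used here. The authors' DESeq2 test on counts was not repeated, because FPKM were deposited. Whole reads were recovered from ratios of FPKM between libraries, within 0.02 reads, for 25563 genes, or 100% of those above 0 in at least 2 libraries.

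Groups were taken from the sample labels. The 13796 genes whose FPKM averaged 0.5 or more were tested on log2(FPKM + 0.1) with limma 3.58.1 (R 4.3.3), as a moderated test with trend in 1 fit of all 12 libraries, and called at a Benjamini-Hochberg adjusted p below 0.05. In simulated data of 13796 genes with a log2 change of 3 set in 200 of them, 195 of these and 11 unchanged genes were called in PQQ-H vs CON. That change is far larger than the log2FC of the 10 genes (-0.39 to 0.24), and the detection of smaller changes was not tested. Single genes were compared with two-sided exact permutation tests, and pairs of genes with 100000 permutations or, over 8 libraries, all permutations. Python 3.11.15, scipy 1.17.1, numpy 2.4.6 and pandas 2.3.3 served for the rest. Libraries of a group were compared for duplicates, and all 19 pairs differed beyond counting noise (chi-square at least 18.5 per degree of freedom). Reads give counting precision only.

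The 10 genes and the lists were chosen with earlier results of these data known. The genes named are the 10, relatives that could share their reads, every called gene of each vascular list or else the 2 with the smallest p, and the 10 genes most like the mean z-score, of which 1 is not reported here. From the other cell type lists, sums and counts are given. The alternatives were pseudocounts, filters on low values, median-of-ratios scaling, TPM, voom on recovered reads, only the 2 groups compared, the letter L or R that opens the library names (7 and 5 libraries, unexplained), the replicate number as a block and each library left out. A striatal score as a covariate and the omission of the 4 libraries with a striatal sum above 1000 FPKM were chosen after seeing the data. Promoter windows are RefSeq sequences of GRCm38.p6, a build other than that of the table, and were matched by symbol.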

Additional observations from a re-analysis of the deposited data

Results flagged for a closer look

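Among 20 sets of libraries checked (the 10 genes in PQQ-L and in PQQ-H), 2 held a library far from the others, where chance gives about 1 in 20. The 10 genes vary together, so the 20 sets are not separate checks and this rate is only a rough guide. The CON libraries were not checked in this way. Cldn5 was at 44.7 FPKM in PQQ-H 2, while the other PQQ-H libraries were at 25.4 to 28.2 FPKM, and this gap was 0.856 of the range of the group. PQQ-H 2 also had the highest red cell sum (600.1 FPKM) and microglial sum (554 FPKM) of the 12 libraries and a striatal sum of 1667 FPKM, and their part in its Cldn5 level was not tested. Tek was at 3.16 FPKM in PQQ-L 3, while the other PQQ-L libraries were at 2.49 to 2.61 FPKM, a gap of 0.813 of the range.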

How the results depend on the processing

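None of the 10 genes was called under any of the 23 alternatives in any of the 3 comparisons, and the smallest adjusted p of limma was 0.0733 in PQQ-L vs CON, 0.182 in PQQ-H vs CON and 0.375 between the doses. The median log2FC of the 10 genes ran from -0.26 to 0.060 in PQQ-L vs CON, -0.33 to -0.069 in PQQ-H vs CON and -0.26 to 0.12 between the doses. Values that changed sign follow, all on the log2 scale and none of them called, and the cause was not tested.

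In PQQ-L vs CON, the striatal covariate gave 0.0024 for Cldn5, 0.023 for Slco1a4, 0.097 for Pecam1, 0.13 for Flt1, 0.094 for Abcb1a, 0.12 for Ly6c1 and 0.027 for Cdh5. Without the 4 libraries with a high striatal sum, Cldn5 was at 0.15, Slco1a4 at 0.049, Pecam1 at 0.17, Flt1 at 0.025 and Ly6c1 at 0.19. With TPM, Flt1 was at 0.043, and with 1 library left out it ran from -0.12 to 0.0035. In PQQ-H vs CON, median-of-ratios scaling gave 0.031 for Cldn5 and 0.020 for Tek, the striatal covariate 0.051 for Cldn5, 0.043 for Ly6c1 and 0.029 for Tek, and the omission of the 4 libraries 0.15 for Cldn5, 0.021 for Ly6c1 and -0.028 for Slc1a2. With 1 library left out, Cldn5 ran from -0.25 to 0.12, Ly6c1 from -0.37 to 0.088 and Tek from -0.16 to 0.074. Between the doses, the striatal covariate gave -0.16 for Pecam1, -0.062 for Mfsd2a, -0.17 for Abcb1a, -0.075 for Ly6c1 and -0.18 for Slc2a1, and the omission of the 4 libraries -0.23, -0.16, -0.29, -0.17 and -0.28 for the same genes. TPM gave -0.015 for Mfsd2a, -0.079 for Abcb1a and -0.040 for Slc2a1. With 1 library left out, Pecam1 ran from -0.078 to 0.22, Mfsd2a from -0.0064 to 0.19, Abcb1a from -0.17 to 0.12, Slc2a1 from -0.086 to 0.17 and Cdh5 from -0.24 to 0.014.

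Libraries with the same replicate number deviated together in some pairs only (correlations of -0.62 to 0.72, over 0.1 in 4 of 10 pairs). The highest value was that of CON 1 and PQQ-H 1, which both had a high striatal sum. Whether libraries with the same number share more than the number was not tested. With the replicate block, the medians of the 10 genes were -0.11, -0.086 and -0.026, Flt1 was at 0.043 in PQQ-L vs CON, and Abcb1a at -0.035 and Slc2a1 at -0.017 between the doses, with 0 of the 10 called. Over all genes, 23 were called with the block in PQQ-L (81 without it), 49 in PQQ-H (151 without it) and 0 between the doses. Over all alternatives the number ran from 1 (the 4 libraries left out) to 3224 (without CON 2, of which 1482 were lower) in PQQ-L, from 6 to 245 in PQQ-H, and was 0 between the doses. Of the called list genes, only Cldn3 kept its calls under the block, the library letter, the covariate and the omission of each single library.

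The letter as a covariate gave an adjusted p of 0.0517 for F11r in PQQ-L, 0.0508 for Cgnl1 and 0.0633 for Pltp in PQQ-H, and the striatal covariate 0.082 for F11r in PQQ-L but 0.0208 for F11r in PQQ-H. Each of the 10 genes had at least 315 reads per library, and the parts of counting error and of the spread between libraries in the intervals were not separated.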
